A study of Mus musculus with 27 samples.

Results

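Membrane serine proteases and their inhibitors were described in mK4 cells through 7 genes, all found by their symbols among the 24953 genes of a TPM table of 9 RNA-seq libraries. They are the membrane-anchored proteases St14 and Prss8, the Kunitz-type inhibitors Spint1 and Spint2, the plasminogen activators Plau and Plat, and Plaur, the receptor of Plau. mK4 is a mouse line derived from the metanephric mesenchyme, the embryonic kidney tissue that turns into the epithelium of the nephron. The table holds 3 libraries of control mK4 cells, 3 of Runx1KO cells, in which CRISPR removed Runx1 exon 3 with the start codon used in this line, and 3 of ZebDKO cells, in which exons holding the start codons of Zeb1 and Zeb2 were removed. All cells were grown untreated in serum-containing medium to near confluence. Both knockouts were made from the control line by picking clones. The number of clones behind the libraries is not stated, so clone and genotype cannot be told apart. The labels name no batch, so handling and genotype cannot be told apart either. Cultures were grown in triplicate, and p-values measure the spread between these libraries only. ATAC-seq, which marks open chromatin, compared control and Runx1KO cells. ChIP-seq of Runx1 and of Runx2 was run in both of these. The peaks described here are those of Runx1 in control cells and of Runx2 in both. Runx1 ChIP-seq of Runx1KO cells served the authors to find and remove background peaks. The samples hold neither assay of ZebDKO cells, so open regions and peaks here describe control and Runx1KO cells only.

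St14 encodes matriptase, a transmembrane serine protease of epithelial surfaces, and Prss8 encodes prostasin, a protease held at the surface by a lipid anchor; each can act on the other. Spint1 and Spint2 encode membrane-bound inhibitors of both. Plau (urokinase, uPA) and Plat (tissue-type activator, tPA) turn plasminogen into plasmin, a protease that digests fibrin and matrix, and Plaur holds uPA at the cell surface. In the kidney, prostasin is known for processing of the epithelial sodium channel, and both activators are made by tubule cells.

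TPM values are scaled for gene length and library sum, but read depth cannot be recovered from them. Levels of different genes set side by side depend on the gene lengths used, which are not stated. They also differ between deposited tables of the same control libraries. Mean Prss8 was 16.0 times as high in the table of 9 libraries as in another. Mean Spint2 was at 18.1 and 19.7 TPM in these tables. Between 12541 and 12697 genes reached 1 TPM per library, the 100 most abundant genes held 18.6 to 19.7% of TPM, and libraries of a group correlated at r = 0.994 to 0.996 across 13374 genes. Among 11 mesenchyme markers, 6 reached a mean of 1 TPM in control, 4 in Runx1KO and 6 in ZebDKO libraries. Six2 and Hoxd11 were listed at 0 in all control libraries. The 4 leukocyte markers summed to 2.5 to 3.3 TPM in control, 30.9 to 32.7 in Runx1KO and 26.2 to 29.3 in ZebDKO libraries, with Csf1r at 0.4 to 1, 28.8 to 30.5 and 23.1 to 26.1 TPM, while the defining marker Ptprc was at 0 in all 9. Of 6 ureteric bud markers Ret and Wnt9b were also at 0 in all 9. Hoxb7, in contrast, was at 67.1 to 74.8 TPM in control, 83.5 to 95.5 in Runx1KO and 93.3 to 107.4 in ZebDKO libraries. Wnt11 reached a mean of 1.27 TPM in Runx1KO libraries. Of 4 stroma markers 2 reached a mean of 1 TPM in control and 1 in each knockout. Among them Foxd1 had means of 93.1, 62.0 and 57.2 TPM in control, Runx1KO and ZebDKO libraries. Mean Runx1 TPM was 17.4 ± 1.61 (SD, n = 3) for control, 29.6 ± 0.987 in Runx1KO and 10.1 ± 0.608 in ZebDKO libraries, and Zeb1 at 14.97 ± 0.709, 0.167 ± 0.0577 and 16.1 ± 1.1 TPM. Zeb2 was at 5.2 ± 0.3, 0.2 ± 0 and 1.7 ± 0.1 TPM. TPM is summed over a whole gene, so the removed exons do not show in it and neither Runx1 in Runx1KO nor Zeb1 in ZebDKO cells checks the labels.

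Of the 7 genes, 5 passed the filter of 1 TPM in at least 3 of 6 libraries in the comparison of Runx1KO with control cells. All 5 passed the call (over 2-fold on log2(TPM+1), limma Benjamini-Hochberg adjusted p under 0.05), against 13.0% of the 13067 genes tested. Prss8, Spint2, Plaur and Plat were higher and Plau was lower. Over all tested genes, 7.91% were called higher and 5.10% lower. Plau passed the filter through the control libraries alone, so it had to differ. In ZebDKO against control cells 6 genes were tested and all 6 were higher, against 14.8% of 12974 genes called in either direction, 7.49% higher and 7.28% lower. St14 passed that filter through the ZebDKO libraries alone, so it had to differ there. Both comparisons use the same 3 control libraries. The libraries of the compared groups did not overlap for any of the 5 and 6 members tested, but the same held for 73.7% and 81.0% of all genes tested. The median log2 fold change of the tested members was 2.05 in Runx1KO and 1.24 in ZebDKO cells, beside -0.06 and -0.18 over all genes tested. In bulk RNA, fewer cells with a transcript and less of it per cell cannot be told apart.

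**Figure D1:**
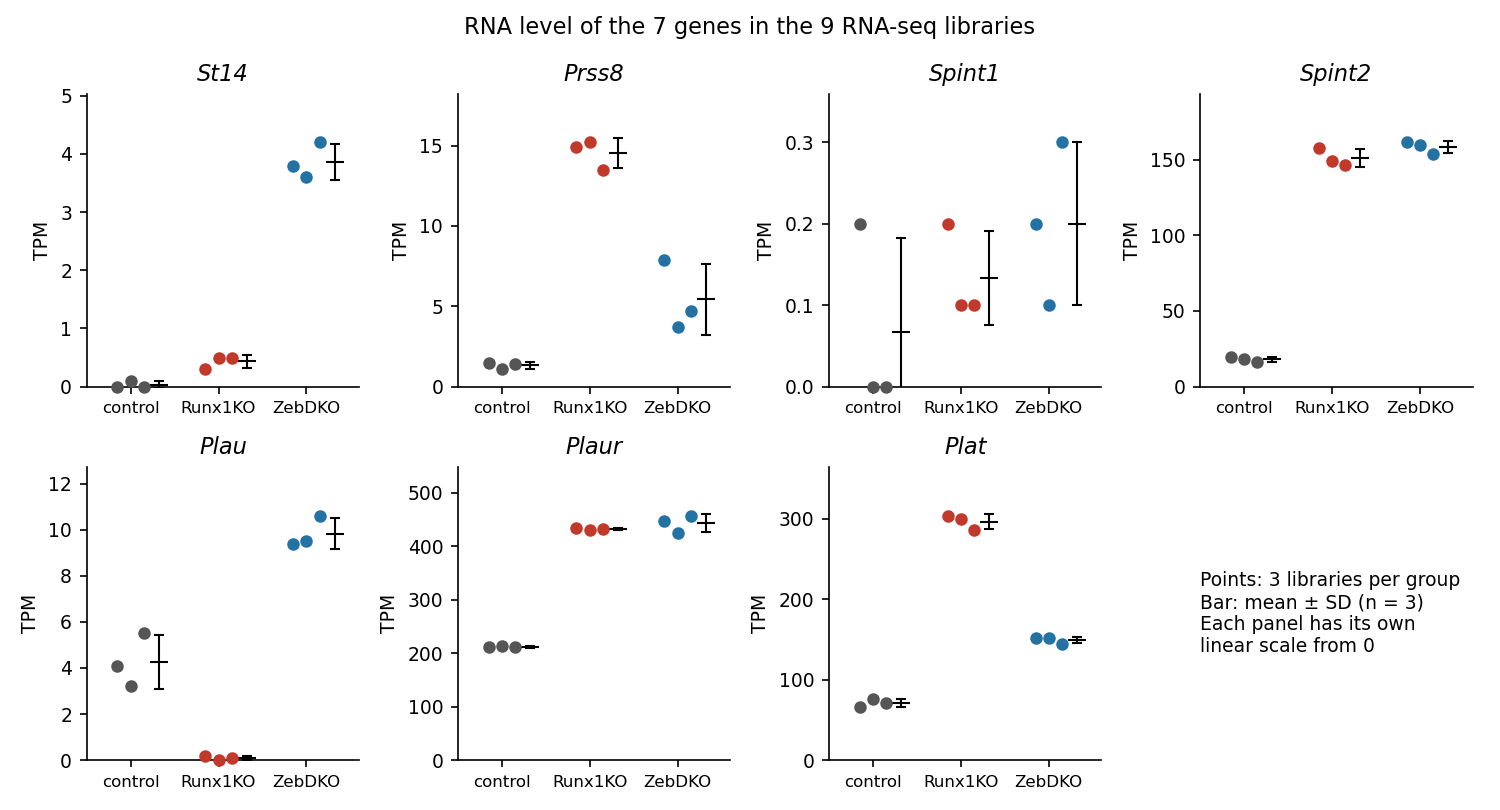
TPM of the 7 genes in each RNA-seq library, with points for the 3 libraries of a group and a bar for the mean ± SD; each panel has its own linear axis from 0. Spint2 and Plaur rose alike in both knockouts, St14 stood above 3 TPM only in the ZebDKO libraries, and Plau was at 0.2 TPM or less in Runx1KO libraries and at 9.4 TPM or more in ZebDKO libraries.

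St14, the matriptase gene, stayed at 0, 0.1 and 0 TPM in control cells. In the Runx1KO libraries it was at 0.3, 0.5 and 0.5 TPM. In the ZebDKO libraries it was at 3.8, 3.6 and 4.2 TPM. The 3 groups did not overlap, but the step of the table is 0.1 TPM and the control values are at 0 or 1 step. ZebDKO exceeded control cells by 2.24 on the log2(TPM+1) scale (SE 0.095, adjusted p 9.43e-07) and exceeded Runx1KO cells by 1.76 (SE 0.097, adjusted p 2.65e-06). Runx1KO against control was below the filter. With no filter the difference was 0.47 (SE 0.076, adjusted p 0.00306), short of 2-fold.

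The St14 gene lies on the minus strand at chr9:30896987-30939438 (mm9). The ATAC-seq lists sort open regions by a 2-fold change between Runx1KO and control cells into Runx1KO-induced, Runx1-dependent (open in control, reduced in the knockout) and Runx1-independent. From 20 kb upstream of St14 to 20 kb past its end lay 4 Runx1KO-induced regions, of which 2 were in introns, 1 reached an exon near the gene's end and 1 was upstream. A further 2 Runx1-independent regions lay there, and no peak of Runx1 or Runx2. No region covered its start. The induced region nearest to the start lies in an intron, its centre 5556 bp downstream. Its central 300 bases are shown as the open chromatin closest to the start of a gene whose RNA was higher in ZebDKO cells. They are given in the direction of the gene, 5′ to 3′, with a match to the AP-1 motif TGACTCA in capitals.
St14, chr9:30933733-30934032, minus strand: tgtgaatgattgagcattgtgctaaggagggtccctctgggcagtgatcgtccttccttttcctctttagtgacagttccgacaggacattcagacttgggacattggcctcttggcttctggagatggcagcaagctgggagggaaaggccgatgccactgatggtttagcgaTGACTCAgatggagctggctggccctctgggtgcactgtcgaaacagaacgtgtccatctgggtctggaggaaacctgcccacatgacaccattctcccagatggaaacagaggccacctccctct

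Prss8, the prostasin gene, was at 1.5, 1.1 and 1.4 TPM in the control libraries. It was at 14.9, 15.2 and 13.5 TPM in the Runx1KO libraries. The ZebDKO libraries held 7.9, 3.7 and 4.7 TPM, so that all ZebDKO values fell between those of the other groups and varied more among themselves, with replicate 1 the highest. Mean TPM was 10.9 times that of control in Runx1KO cells, with a log2 fold change of 2.74 (SE 0.086, adjusted p 2.85e-07). In the other deposited table, where its control mean was 0.0833 TPM, the ratio of means was 84.8 and the log2 fold change 2.90. There Prss8 passed the filter through the Runx1KO libraries alone, so it had to be higher. In ZebDKO cells mean Prss8 TPM was 4.08 times control, with a log2 fold change of 1.41 (SE 0.22, adjusted p 0.000655). This ratio rests on the same control values as the 10.9, and the other deposited table holds no ZebDKO libraries to set beside it. Set directly against Runx1KO cells, ZebDKO cells were lower by a log2 fold change of -1.32 (SE 0.21, adjusted p 0.000765). Prss8, on the minus strand at chr7:135069239-135073627, shares 108 bp with Kat8 (Myst1 in the gene models) on the opposite strand, and whether counting used strand is not stated. Kat8 was at 12.6 ± 0.379, 11.6 ± 0.666 and 11.3 ± 1.25 TPM in control, Runx1KO and ZebDKO libraries and was not called in any comparison.

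At Prss8 a Runx1KO-induced region of 510 bp covered the annotated start, as at 2.24% of 20260 genes with a position. The locus held 2 more induced and 3 Runx1-independent regions. A Runx2 peak of control cells lay 10669 bp past the start, nearer to the start of Myst1, and a Runx2 peak of Runx1KO cells lay 2366 bp upstream inside a Runx1-independent region. The upstream part of the central 300 bases of the start region is shown because this region was more open in Runx1KO cells and the gene was higher there. It ends at the base before the annotated start. Capitals mark CAGGTG, an E-box that Zeb proteins are known to bind, which begins 37 bp upstream of the start, and ACCACA, the reverse complement of the Runx motif TGTGGT.
Prss8, chr7:135073628-135073895, minus strand: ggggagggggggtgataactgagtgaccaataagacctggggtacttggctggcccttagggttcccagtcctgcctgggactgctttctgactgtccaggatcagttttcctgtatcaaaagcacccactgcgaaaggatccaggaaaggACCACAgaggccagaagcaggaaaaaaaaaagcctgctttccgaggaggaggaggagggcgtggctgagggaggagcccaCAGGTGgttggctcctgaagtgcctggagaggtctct

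The inhibitors parted from each other. Spint1 was at 0.2, 0 and 0 TPM in control, 0.2, 0.1 and 0.1 TPM in Runx1KO and 0.2, 0.1 and 0.3 TPM in ZebDKO libraries. All 9 values were within 3 steps of the table, the groups overlapped, and the gene never passed the filter. With no filter its log2 fold changes were 0.09 in Runx1KO (adjusted p 0.426) and 0.17 in ZebDKO cells (adjusted p 0.189), values that this resolution cannot tell from 0. The Spint1 locus (chr2:119063098-119075263, plus strand) nevertheless held 2 Runx1KO-induced regions, one of them in an intron 1505 bp past the start, and 4 Runx1-independent regions. Of the latter, 2 overlapped Runx2 peaks, and the one 25927 bp past the start also overlapped a Runx1 peak but lies nearer to the start of Rhov.

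Spint2 was among the more abundant members and rose in both knockouts. It was at 19.3, 18.6 and 16.4 TPM in control libraries. The Runx1KO libraries held 158, 149 and 146.2 TPM. The ZebDKO libraries held 161.4, 159.5 and 153.7 TPM, overlapping the Runx1KO values, and both knockouts lay far above control. Mean TPM was 8.35 times control in Runx1KO (log2 fold change 2.995, SE 0.063, adjusted p 4.28e-08) and 8.74 times control in ZebDKO cells (3.06, SE 0.061, adjusted p 3.45e-08). The direct difference of the knockouts was 0.07 on the log2 scale, with a 95% interval from -0.02 to 0.15 (adjusted p 0.136). After median-ratio scaling of the libraries it was 0.21 (adjusted p 0.00119).

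Spint2 lies on the minus strand at chr7:30041350-30066996. A Runx1KO-induced region of 1590 bp covered its start, and 2 more induced regions lay upstream, each nearer to the start of another gene (Ppp1r14a and Dpf1). Its 4 Runx1-independent regions lay downstream of the start. Those 33794 and 43553 bp downstream overlapped Runx2 peaks of both cell lines, the farther one also a Runx1 peak, and both lie nearer to starts of other genes. In the central 300 bases of the start region 2 CAGGTG matches were found, both on the strand opposite to the gene. They are shown with 12 bases on each side, in the direction of the gene, with CACCTG, the reverse complement, in capitals. They begin 231 and 282 bp past the start.
Spint2, chr7:30066748-30066777, minus strand: ggggcgaagccgCACCTGagcccgcggacc
Spint2, chr7:30066697-30066726, minus strand: tgggctttcccgCACCTGctcgcgagaccc

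**Figure D2:**
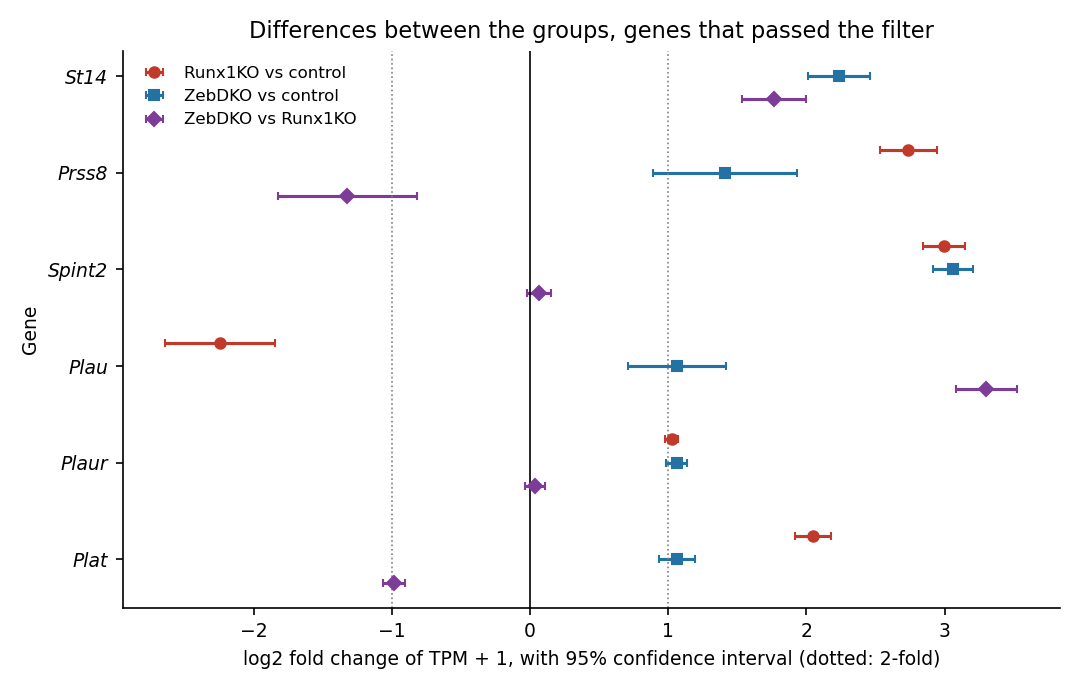
Log2 fold changes of TPM + 1 for the 6 genes that passed the filter, with 95% confidence intervals from limma (x axis; dotted lines at 2-fold) in the 3 comparisons (circles, squares and diamonds). For Spint2 and Plaur the direct difference between the knockouts sits near 0, whereas Plau lies at -2.24 in Runx1KO and at 1.06 in ZebDKO cells.

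Among the plasminogen genes Plau, which encodes urokinase, moved in opposite directions in the knockouts. It was at 4.1, 3.2 and 5.5 TPM in control libraries. In Runx1KO libraries it was at 0.2, 0 and 0.1 TPM. In ZebDKO libraries it was at 9.4, 9.5 and 10.6 TPM, and the 3 groups did not overlap. Runx1KO cells were lower than control by a log2 fold change of -2.24 (SE 0.17, adjusted p 2.25e-05), a size that depends on the constant added to TPM because the Runx1KO values are near 0. With 0.1 added it was -4.55, and in the other deposited table it was -1.55. ZebDKO cells were higher than control by 1.06 (SE 0.15, adjusted p 0.000379), and without control replicate 2 by 0.91, which no longer reached 2-fold. Between the knockouts the log2 fold change was 3.30 (SE 0.094, adjusted p 1.55e-07), and with 0.1 added 5.77.

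Plau lies on the plus strand at chr14:21655884-21662610, and its start was the nearest coding start to every peak in its window. It had 3 Runx1-dependent regions, 1 Runx1KO-induced region 27081 bp past the start and no Runx1-independent region. Of the other members Plat alone had a Runx1-dependent region, and 22.6% of all genes had at least 1 in such a window. The dependent region 5279 bp upstream overlapped a Runx2 peak in control cells (4.39-fold over background, q 1.04e-05) and in Runx1KO cells (4.11-fold, q 4.93e-06). No Runx1 peak lay in the window. The central 300 bases of the dependent region nearest to the start, 2254 bp upstream, are shown because this region was less open in the cells in which Plau RNA was lower. None of the motifs searched occurred in them.
Plau, chr14:21653481-21653780, plus strand: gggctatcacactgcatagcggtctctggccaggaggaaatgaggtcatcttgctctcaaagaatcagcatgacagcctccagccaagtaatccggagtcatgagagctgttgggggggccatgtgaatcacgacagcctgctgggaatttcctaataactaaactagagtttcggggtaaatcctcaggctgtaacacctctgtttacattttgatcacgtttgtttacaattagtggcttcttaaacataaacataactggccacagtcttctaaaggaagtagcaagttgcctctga

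Plaur, the urokinase receptor gene, had the highest level of the 7 genes in every group. It was at 211.5, 213.1 and 210.9 TPM in control libraries. The Runx1KO libraries held 435.1, 430.9 and 431.7 TPM. The ZebDKO libraries held 448, 424.5 and 457 TPM, overlapping the Runx1KO values, with both knockouts above all control values. The rise just passed 2-fold in both, with log2 fold changes of 1.03 (SE 0.02, adjusted p 3.24e-08) and 1.06 (SE 0.033, adjusted p 2.09e-07). The knockouts differed by 0.03 (95% interval -0.04 to 0.11, adjusted p 0.334), and after median-ratio scaling by 0.18 (adjusted p 0.00277).

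The start of Plaur (chr7:25247519-25260892, plus strand) was covered by a Runx1-independent region, as at 43.7% of genes. The locus also held 3 Runx1KO-induced regions, at 11725 and 2754 bp upstream and 2966 bp downstream of the start. The induced region 2754 bp upstream overlapped a Runx2 peak found in Runx1KO cells (3.56-fold, q 7.11e-05), and no Runx2 peak of control cells overlapped it. It was the only one of the 16 induced regions at the 7 loci that overlapped a ChIP-seq peak. Inside the gene 2 Runx2 peaks were listed in both cell lines, one of them in control cells at q 0.0171. The central 300 bases of the start region hold none of the motifs searched and are shown to set beside those of Prss8, where the start was covered by an induced region.
Plaur, chr7:25247110-25247409, plus strand: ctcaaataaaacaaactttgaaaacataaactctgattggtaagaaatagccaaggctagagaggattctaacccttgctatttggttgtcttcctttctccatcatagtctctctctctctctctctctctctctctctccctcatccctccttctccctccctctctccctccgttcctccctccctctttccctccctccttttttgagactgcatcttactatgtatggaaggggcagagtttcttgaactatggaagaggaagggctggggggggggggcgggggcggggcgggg

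Plat, which encodes tissue-type plasminogen activator, was at 65.8, 76.3 and 70.6 TPM in control libraries. It was at 303.3, 299.7 and 285.4 TPM in Runx1KO libraries. ZebDKO libraries held 151.7, 151.3 and 144.3 TPM, between the other groups and overlapping neither. Mean TPM was 4.18 times control in Runx1KO (log2 fold change 2.05, SE 0.055, adjusted p 1.43e-07) and 2.103 times control in ZebDKO cells (1.06, SE 0.055, adjusted p 2.37e-06). The direct difference was -0.99 (95% interval -1.07 to -0.90, adjusted p 3.41e-07). It lay just short of 2-fold, and was past it at -1.01 without Runx1KO replicate 3.

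Plat (chr8:23868216-23893319, plus strand) was the only member without a Runx1KO-induced region in its window. A Runx1-independent region covered its start and 3 more lay in the window, and a Runx1-dependent region lay in an intron 8126 bp past the start. No ChIP-seq peak was listed there. Of the central 300 bases of the start region an intronic stretch is shown, for the member whose RNA rose with no induced region in its window. It holds none of the motifs searched.
Plat, chr8:23868301-23868472, plus strand: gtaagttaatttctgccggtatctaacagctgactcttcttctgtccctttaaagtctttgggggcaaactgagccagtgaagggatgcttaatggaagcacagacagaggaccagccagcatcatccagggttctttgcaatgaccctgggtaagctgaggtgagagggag

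The direct comparison of ZebDKO with Runx1KO cells tested 6 members, and 3 were called: St14 and Plau higher, Prss8 lower in ZebDKO cells. Over all 13071 genes tested 15.8% were called, 6.59% higher and 9.20% lower, and the median log2 fold change was -0.15. St14 and Plau passed this filter through the ZebDKO libraries alone, so both had to be higher there. The libraries of both knockouts did not overlap for 4 of the 6, against 81.7% of all genes tested.

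Ordered by mean TPM, control cells had Plaur, Plat, Spint2, Plau and Prss8 in falling order, followed by Spint1 and St14, whose libraries overlapped. Runx1KO cells had Plaur, Plat, Spint2, Prss8 and St14, followed by Spint1 and Plau, which overlapped. In ZebDKO cells Spint2 stood above Plat with no overlap, Plau above Prss8, and Prss8 and St14 overlapped. Urokinase was therefore the fourth most abundant of the 7 transcripts in control and ZebDKO cells and the last by mean in Runx1KO cells. The ratio of Spint2 to Prss8 TPM was 11.7 to 16.9 in control, 9.8 to 10.8 in Runx1KO and 20.4 to 43.1 in ZebDKO libraries. This ratio depends on the table: in the other deposited table of the same control and Runx1KO libraries it was 140 to 408 and 24.8 to 28.1. The order of Spint2 and Plat depends on it too. In the other table Spint2 stood above Plat in Runx1KO libraries, at 185.02 to 195.99 against 163.65 to 173.98 TPM.

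Genes with the most similar profile were found as the smallest root mean square difference (RMS) of log2(TPM+1), centred on control, over the 9 libraries among 13374 genes. For St14 they were Myc (RMS 0.105), Rnd1 (0.116) and Mfhas1 (0.122), and Myc was at 39.9, 52.3 and 184 TPM on average in control, Runx1KO and ZebDKO cells. For Prss8 they were Upb1 (0.229), Ptger4 (0.234) and Ttc39a (0.242). For Spint2 they were Sorbs2 (0.0896), Plekhs1 (0.152) and Oas1a (0.181). For Plau they were Sdc3 (0.192), Clstn2 (0.205) and Neurl3 (0.22), of which Neurl3 was at 75.9, 17.5 and 183 TPM. For Plaur they included Gcat (0.0455) and Gpc4 (0.0641), and Gpc4, a membrane-anchored heparan sulfate proteoglycan, was at 22.1, 45.7 and 44.2 TPM. For Plat they were Tgm1 (0.0858), Rflnb (0.0898) and Rabggta (0.0993). Adding 1 to TPM shrinks the changes of low genes, so a small RMS need not mean like ratios of TPM. Tgm1 had means of 0, 3.27 and 0.967 TPM in control, Runx1KO and ZebDKO cells, against 70.9, 296 and 149 TPM for Plat.

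Among 24 other listed serine proteases, most of them membrane-anchored, 2 passed the filter in Runx1KO against control cells, Hpn and Prss22. Both were called higher, as were 7.91% of all genes tested, but both passed through the Runx1KO libraries alone, so they had to differ in that direction. Hpn, the gene of hepsin, was listed at 0 in all control libraries and at 10, 9.4 and 9.8 TPM in Runx1KO libraries (log2 fold change 3.42, adjusted p 3.08e-08). Prss22 was at 0.367 ± 0.252 in control and 6.43 ± 1.12 TPM in Runx1KO libraries (2.45, adjusted p 1.32e-05). In ZebDKO cells Prss22, which passed through those libraries alone, was called of 2 tested, at 1.83 ± 0.666 TPM (1.04, adjusted p 0.00269), and Hpn was at 0.9, 0.9 and 0.7 TPM, below the filter. Like Prss8, both were lower in ZebDKO than in Runx1KO cells, by log2 fold changes of -2.55 for Hpn and -1.41 for Prss22 (adjusted p 1.58e-07 and 0.000294). Tmprss9 was higher in that comparison (1.08, adjusted p 9.28e-05) at 1.53 ± 0.252 against 0.2 ± 0.1 TPM. There Hpn passed the filter through the Runx1KO libraries alone and Tmprss9 through the ZebDKO libraries alone, so both had to differ. Prss27 was at 0.467 ± 0.252, 0.833 ± 0.451 and 0.5 ± 0.265 TPM in control, Runx1KO and ZebDKO libraries and passed no filter.

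Of 20 other protease inhibitors, most of them serpin or Kunitz inhibitors, 8 were tested in Runx1KO against control. Of these 2 were lower and 0 higher, with a median log2 fold change of -0.30. Over all genes 13.0% were called and the median was -0.06. In ZebDKO cells 10 were tested, with 3 higher, 1 lower and a median of 0.39, against 14.8% and -0.18 over all genes. Of these calls 1 of 2 and 3 of 4 were of genes that passed the filter through one group alone, Serping1 in both comparisons and Serpine2 and Serpinf2 in ZebDKO cells. Serping1, the complement C1 inhibitor gene, fell in both knockouts, from 10.5 ± 1.0 TPM in control to 0.3 ± 0.1 in Runx1KO and 0.3 ± 0.173 in ZebDKO libraries. Its log2 fold changes were -3.14 and -3.15 (adjusted p 2.37e-07 and 5.96e-07). Serpinb9, an inhibitor of granzyme B, fell in Runx1KO cells alone among the calls, from 76.6 ± 1.39 to 17.3 ± 1.5 TPM (-2.09, adjusted p 2.02e-07), and was higher in ZebDKO than in Runx1KO cells by 1.87 (adjusted p 3.81e-07). Serpine2 and Serpinf2, the gene of the plasmin inhibitor antiplasmin, rose in ZebDKO cells to 1.53 ± 0.404 and 1.9 ± 0.5 TPM from 0.0333 ± 0.0577 TPM each. Serpine2 was at 1.1, 0.9 and 1.1 TPM in Runx1KO libraries, below the filter against control, and differed between the knockouts by 0.31 (adjusted p 0.0675). Pebp1 and App, both abundant, were called in neither comparison.

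Plasminogen itself (Plg) was listed at 0 in the control and Runx1KO libraries and at 0.1 to 0.2 TPM in ZebDKO libraries. Of the 19 listed genes of plasminogen, its receptors and its partners 16 were tested against control in each knockout. In Runx1KO cells 2 were higher and 2 lower, and in ZebDKO cells 3 were higher and 2 lower, with medians of -0.05 and 0.18. Over all genes tested 13.0% and 14.8% were called and the medians were -0.06 and -0.18. Among the calls Lypd3 and Mrc2 passed the filter through one group alone in both comparisons. The plasminogen-binding genes Anxa2, S100a10 and Eno1 had mean levels above 1200 TPM in control cells and were called in neither comparison. Lypd3, which encodes a surface protein related to the urokinase receptor, was at 0.2, 0.2 and 0.2 TPM in control, 44.7, 46.2 and 42.3 in Runx1KO and 20, 17.8 and 18.6 TPM in ZebDKO libraries. Its log2 fold changes were 5.24 and 4.04 (adjusted p 2.91e-09 and 1.94e-08).

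The endocytic receptors Lrp1 and Mrc2 fell in both knockouts. Lrp1, which takes up protease-inhibitor complexes, fell from 55.4 ± 6.47 TPM in control to 7.37 ± 0.153 in Runx1KO and 22.3 ± 2.84 in ZebDKO libraries (log2 fold changes -2.75 and -1.27, adjusted p 2.19e-07 and 2.5e-05). Mrc2, a collagen receptor that associates with Plaur, was at 27.6 ± 0.945 TPM in control, at 0 in all Runx1KO libraries and at 0.1, 0.2 and 0 TPM in ZebDKO libraries (adjusted p 4.91e-09 and 2.1e-08). Of the integrins, Itga3 rose in Runx1KO cells from 84.6 ± 0.404 to 264 ± 8.7 TPM (1.63, adjusted p 2.47e-08) and in ZebDKO cells was at 163 ± 1.45 TPM (0.94, short of 2-fold). Itgb3 and Itga5 rose in ZebDKO cells by 1.51 and 1.15 (adjusted p 4.27e-06 and 9.94e-07), and in Runx1KO cells had log2 fold changes of -0.95 and -0.80, not past 2-fold.

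Of 15 substrates and receptors downstream of St14 and Prss8 in the table, 7 were tested in Runx1KO cells and 4 were higher, and 9 were tested in ZebDKO cells and 5 were higher. None was lower in either. Over all genes tested 7.91% and 7.49% were called higher. The medians were 1.69 and 1.20, against -0.06 and -0.18 over all genes. Of the genes called, 3 of 4 and 4 of 5 passed the filter through the knockout libraries alone and had to be higher, so neither counts nor medians are a result about the list, and F2rl1 was the one called that was above the filter in all groups. F2rl1, the gene of a receptor (PAR-2) that matriptase can cleave, was at 105 ± 2.91 TPM in control, 340.1 ± 4.87 in Runx1KO and 242 ± 3.0 in ZebDKO libraries (1.69 and 1.20, adjusted p 1.89e-08 and 9.57e-08). Epcam, an epithelial adhesion protein cleaved by matriptase, was listed at 0 in all control and Runx1KO libraries and at 28.3, 26.7 and 28.8 TPM in ZebDKO libraries, the group in which St14 was highest (adjusted p 6.4e-09 against control).

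The sodium channel subunit Scnn1a rose from 0.533 ± 0.153 to 4.23 ± 0.289 TPM in Runx1KO cells (1.77, adjusted p 5.16e-06), and in ZebDKO cells it was at 1.67 ± 0.153 TPM (0.80, adjusted p 0.000304, short of 2-fold). Scnn1g rose from 0.167 ± 0.0577 to 2.03 ± 0.0577 TPM in ZebDKO cells (1.38, adjusted p 7.07e-06). In Runx1KO libraries it was at 0.8, 1.2 and 1.9 TPM, below the filter against control, and the knockouts differed by 0.43 (adjusted p 0.047, short of 2-fold). Hgfac, the gene of a protease that activates hepatocyte growth factor, rose to 17.1 ± 0.874 and 5.27 ± 0.473 TPM from 0.3 ± 0.173 TPM. Hgf was at 0.2 TPM or less in all 9 libraries. Its receptor Met stood at 53.1 ± 3.1, 62.0 ± 3.25 and 46.6 ± 2.58 TPM, and the thrombin receptor F2r at 203 ± 6.99, 189 ± 4.3 and 191 ± 8.46 TPM in control, Runx1KO and ZebDKO libraries. Neither was called.

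**Figure D3:**
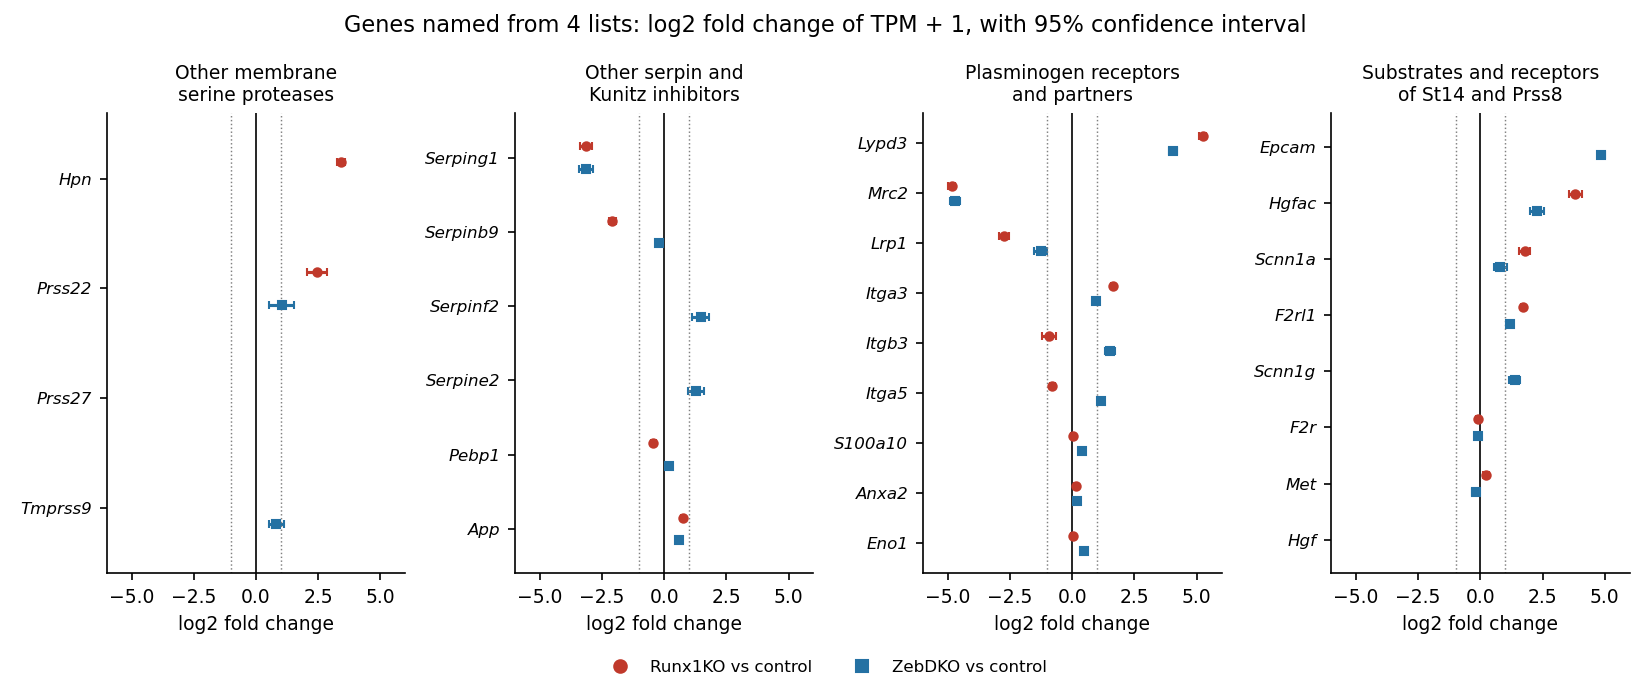
Log2 fold changes of TPM + 1 with 95% confidence intervals (x axis; dotted lines at 2-fold) for genes named from 4 lists, in Runx1KO (circles) and ZebDKO (squares) against control cells; genes with no symbol were below the filter. Lypd3, Hgfac and F2rl1 lie right of the 2-fold line in both comparisons, and Serping1, Mrc2 and Lrp1 left of it in both.

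**Figure D4:**
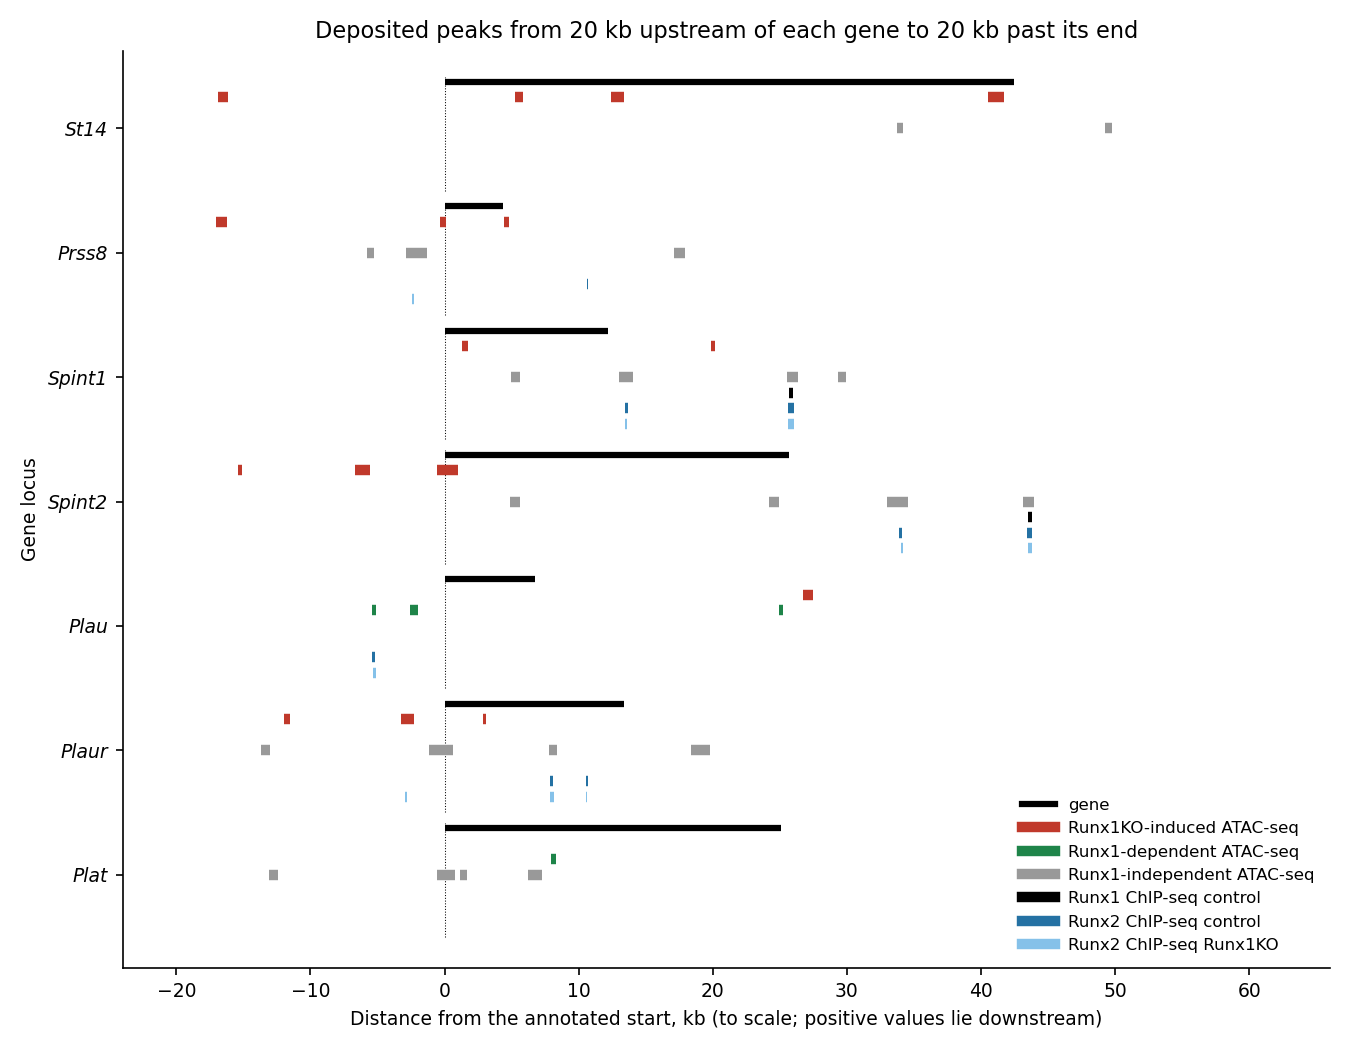
Positions of the deposited ATAC-seq and ChIP-seq peaks around the 7 genes, drawn to scale in kb from each gene's annotated start (x axis), with the gene as a black bar and 1 row for each peak list. Induced regions cover the starts of Prss8 and Spint2, and Plau is the locus with 3 Runx1-dependent regions.

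Over the 7 loci the lists held 41 open regions, of which 16 were Runx1KO-induced, 4 Runx1-dependent and 21 Runx1-independent. At least 1 induced region lay in the window of 6 of the 7 genes, against 31.7% of all 20260 genes, and 2 of 7 starts were covered by one, against 2.24%. A Runx1-independent region lay in 6 of 7 windows (75.5% of all genes). A Runx1 peak lay in 2 of 7 (34.9%), a Runx2 peak of control cells in 5 of 7 (55.9%) and a Runx2 peak of Runx1KO cells in 5 of 7 (55.1%). No ChIP-seq peak covered a start of the 7, against 4.44% of all genes for Runx1, 13.5% for Runx2 in control and 15.1% in Runx1KO cells, and no Runx1-dependent region did (1.38%). Windows are wider for longer genes and these shares are a description. The peak lists hold no values per replicate, so no difference between groups was tested on them.

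Motifs were searched on both strands of the central 300 bp of each open region: CAGGTG and CAGGTA (Zeb), TGTGGT (Runx), TGACTCA (AP-1) and AACNGGTT (Grhl). Of the 16 induced regions at the 7 loci 10 held CAGGTG or CAGGTA, as did 62.7% of all 9427 induced regions. CAGGTG alone occurred in 48.4% of all induced regions. The AP-1 letters occurred in 6 of the 16 and in 33.3% of all induced regions, and the Runx letters in 4 and 21.0%. The Grhl letters occurred in 2 and 2.69%. None of the 4 Runx1-dependent regions held CAGGTG or CAGGTA, against 18.7% of all 8741, and 1 held the Runx letters (35.5%). Of the 21 Runx1-independent regions 7 held CAGGTG or CAGGTA (33.3% of all 37481). The induced regions at these genes thus held the Zeb letters at about the share of their class.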

How the data were processed

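The authors mapped trimmed reads (Trim Galore) to mm9 by STAR, dropped duplicates by sambamba, assigned reads to RefSeq genes by featureCounts 1.6.2 and deposited TPM; the gene lengths used are not stated. The main table has 1 decimal; a 6-library table of 32792 genes was an alternative for Runx1KO against control. The authors called ChIP-seq peaks with MACS2 on combined replicates, and deposited the fold over background and the −log10 q-value of each. By their methods, peaks overlapping background peaks of the Runx1 assay in Runx1KO cells were removed. They deposited ATAC-seq regions as 3 lists with the log2 fold change and p of their own comparison, which were not used.

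Genes reaching 1 TPM in 3 or more of the 6 libraries compared entered a limma 3.58.1 fit of log2(TPM+1) (R 4.3.3, trend in the prior variance, two-sided, Benjamini-Hochberg over all genes tested). Adding 1 understates changes of low genes. The study's count model could not be run on TPM. An exact permutation test of 3 against 3 libraries cannot go below p = 0.10 and was not used. The script was tested on simulated data with changes placed only on genes well above the filter, so genes near 0 TPM were not covered. Gene models were those of GENCODE vM1, and 20260 of 24953 genes had 1 position. Sequences were read from mm9 with pysam 0.24.0 (Python 3.11.15). UTR bases were left out of printed windows, except stretches of at most 30 bases.

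Named genes were the members, the targeted genes and, of each list, up to 6 with the largest called change, the 3 most abundant in control and a few fixed genes (among them Serpine2, Hgf, Met, F2rl1 and Epcam), of which some are not reported here; the 3 nearest profiles of each tested member were also named, and Plg and Kat8 were added after their values were seen. The members and lists were chosen with earlier results of these data known. Replicate numbers were not taken as pairs, since deviations of same-numbered libraries correlated at -0.0495 to 0.0399 over 9 pairs.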

Additional observations from a re-analysis of the deposited data

Results flagged for a closer look

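For 4 genes the change in one knockout differed from that in the other by the direct test of ZebDKO against Runx1KO libraries (limma, adjusted p under 0.05). St14 was higher in ZebDKO cells by 1.76 on the log2 scale (adjusted p 2.65e-06), and all 3 ZebDKO libraries lay above all 3 Runx1KO libraries. Plau was higher by 3.30 (adjusted p 1.55e-07), in 3 of 3 libraries, after having moved in opposite directions against control. St14 and Plau passed the filter through the ZebDKO libraries alone, so both had to be higher there, without overlap. Prss8 was lower, at -1.32 (adjusted p 0.000765), and Plat was lower, at -0.99 (adjusted p 3.41e-07), each in 3 of 3 libraries, with both genes above control in both knockouts. Of all 13071 genes tested 81.7% had no overlap between the libraries of these groups. The ZebDKO libraries carry other processing notes in the labels than the Runx1KO libraries, and no batch is named, so handling and genotype cannot be told apart. The labels name no batch for the control libraries either, so this limit holds for both knockouts against control cells too.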

How the results depend on the processing

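The number of members called was 4 to 5 in Runx1KO, 4 to 6 in ZebDKO and 2 to 4 in ZebDKO against Runx1KO cells over all alternatives, and no direction was reversed. A filter of 5 TPM gave the lowest counts, as fewer members were tested. Leaving out 1 library gave 5 to 5, 5 to 6 and 3 to 4 called members. Plau in ZebDKO against control cells lost its call without control replicate 2 (0.91), and Plat between the knockouts gained one without Runx1KO replicate 3 (-1.01) and at the 1.3-fold limit. With 0.1 in place of 1 added to TPM, log2 fold changes of low genes grew, for St14 in ZebDKO against control cells to 4.97 and for Prss8 in Runx1KO cells to 3.36. Median-ratio scaling moved the median of all genes from -0.18 to 0.00 in ZebDKO cells and from -0.15 to -0.01 between the knockouts, and the share of calls that were higher from 50.7 to 64.1% and from 41.7 to 52.5%. With the replicate number as a replicate block 5, 6 and 3 members were called, and 1709, 1922 and 2071 genes in all. The numbers mark no shared culture in the labels.

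At the 1.3-fold limit 4857, 6746 and 6780 genes were called in all, against 1699, 1916 and 2065. Of the serpin and Kunitz list 6, 7 and 5 genes were then called in Runx1KO, ZebDKO and the direct comparison. Of the plasminogen list 8, 10 and 9 were called, of the other serine proteases 2 in ZebDKO cells, and of the substrates 8 in the direct comparison. Median-ratio scaling moved the calls of the plasminogen list in ZebDKO cells from 5 to 6 and of the substrates in the direct comparison from 4 to 3.

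Peak counts follow the window. With 5 kb the 7 loci held 9 induced, 2 dependent and 12 independent regions, 0 Runx1 peaks, and 3 and 5 Runx2 peaks of control and Runx1KO cells, against 16, 4, 21, 2, 8 and 9. With 50 kb they held 43 independent regions, 8 Runx1 peaks and 22 and 21 Runx2 peaks. The read count of a gene cannot be recovered from TPM, so the counting error of values of 0 to 0.5 TPM could not be given.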

Other observations

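The other deposited TPM table, of control and Runx1KO libraries, gave the members other levels. Prss8 was at 0.15, 0.05 and 0.05 TPM in its control libraries, where the table of 9 libraries had a mean 16.0 times as high, and at 6.98, 7.46 and 6.76 TPM in its Runx1KO libraries. Plaur was at 113 ± 1.49 and 257 ± 2.26 TPM (mean ± SD, n = 3) and Plat at 37.2 ± 3.16 and 170 ± 5.86 TPM. Spint2 was at 19.7 ± 1.75 and 189 ± 6.27 TPM, so that it stood above Plat in Runx1KO cells, in reverse of the order in the table of 9 libraries. The directions against control were the same in both tables for the 5 members tested. Both tables hold the same control and Runx1KO libraries, so this is no independent check. In the other table Prss8 passed the filter through the Runx1KO libraries alone and Plau through the control libraries alone. The directions of both were thereby fixed in advance.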
